A study of Homo sapiens with 4 samples.

Results

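The miR-29 family was followed here in HCT116 cells, a widely used human colorectal carcinoma line. Its members were taken as every deposited count whose miRNA name is a strand of miR-29a, miR-29b or miR-29c, which gave 7 of the 1644 miRNA names and 124 of the 12689 end isoforms. An end isoform is a miRNA with a given 5′ start and 3′ end, each stated as an offset in nt from the annotated end. Small RNA was sequenced from cells transfected with 4 plasmid mixtures. The empty vector library came from cells that received pcDNA3 alone. The wild-type library came from cells given a set of pri-miRNA plasmids with a plasmid of pri-mir-16-1, and the mutant 1 library from cells given a variant of each of those pri-miRNAs with pri-mir-16-1. The mutant 2 library, in the order of the study's plasmid list, came from cells given pri-mir-342 (midM_910), pri-mir-16-1 and empty vector. No deposited plasmid encodes a miR-29, so the family is endogenous in all 4 libraries. The transfection was transient, and the share of cells that took up plasmid is not given in the sources used here. The study sequenced these cells to see how features of pri-miRNAs act on their processing. For miR-29, the comparison of libraries addresses how far an endogenous family stayed at its level when other pri-miRNAs were introduced.

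MiR-29 guides are known for repressing collagens and other extracellular matrix genes and the DNA methyltransferases DNMT3A and DNMT3B, and MYC is known to repress transcription of their clusters. In each hairpin, the 3p strand is the usual guide that Argonaute keeps, and the 5p strand is the passenger that is mostly lost. DROSHA makes the 5′ start of a 5p strand and the 3′ end of a 3p strand, whereas DICER makes the ends on the side of the loop, the 3′ end of the 5p strand and the 5′ start of the 3p strand. A shifted 5′ start moves the seed, the bases that pair with targets.

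The mature sequences are shown first because the counts turn on how alike they are. They are RefSeq sequences on GRCh38.p14, and all 7 names and all 4 hairpins were found there. Capitals mark the seed, bases 2 to 8. The guides share a seed that no other miRNA in the RefSeq table carries.
hsa-miR-29a-3p: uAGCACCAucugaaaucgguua
hsa-miR-29b-3p: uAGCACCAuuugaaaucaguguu
hsa-miR-29c-3p: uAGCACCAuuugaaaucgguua
The 5p strands have 4 different seeds, each found in 1 miRNA of that table.
hsa-miR-29a-5p: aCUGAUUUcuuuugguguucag
hsa-miR-29b-1-5p: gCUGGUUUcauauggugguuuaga
hsa-miR-29b-2-5p: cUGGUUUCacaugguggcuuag
hsa-miR-29c-5p: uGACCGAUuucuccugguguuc
Counted from 1 at the 5′ end, miR-29a-3p and miR-29c-3p differ at 1 base, C10U. The sequence of miR-29b-3p differs from miR-29c-3p at G18A, U21G and A22U, and is 23 nt long against 22 nt. A read of miR-29b-3p therefore had to extend to position 18 before it could be told from miR-29c-3p.

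The hairpins lie in a pair of clusters. On chromosome 7 (hg38, minus strand), MIR29A spans chr7:130876747-130876810 and MIR29B1 spans chr7:130877459-130877539, with 648 bases between them. Both lie in LINC-PINT, a long noncoding RNA gene. MIR29A is intronic in 11 of the 11 LINC-PINT transcripts that span it, and MIR29B1 in 11 of 12, with the other exonic. Both also lie in intron 2 of LINC00513 on the opposite strand. On chromosome 1 (minus strand), MIR29C spans chr1:207801852-207801939 and MIR29B2 spans chr1:207802443-207802523, with 503 bases between them. Both lie in MIR29B2CHG, where each is intronic in 4 of 5 transcripts and exonic in 1. The sequence of miR-29b-3p occurs at 2 places in the genome, MIR29B1 and MIR29B2, whereas each of the other 6 strands occurs at 1.

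The libraries held between 14544516 and 19834361 miRNA reads. The miRNAs that the plasmids encode took 7.999% of them (empty vector), 29.5% (wild type), 29.3% (mutant 1) and 11.7% (mutant 2). Levels are therefore given as reads per 1000000 untransfected miRNA reads (RPM), over the 12241852 to 15134221 reads of miRNAs that no plasmid encodes. No condition had a replicate, so no comparison between libraries was tested. All intervals are at 95% and cover counting error only. They take reads as independent, which PCR reads without molecular identifiers are not, so they can be too narrow. In such bulk libraries, fewer cells making a miRNA and less of it per cell cannot be told apart. The epithelial markers miR-200c-3p, miR-141-3p, miR-200a-3p and miR-429 were abundant, at a summed 22562 to 24661 RPM. Of the 3 intestinal markers, which summed to 3070, 2501, 1849 and 2451 RPM in the empty vector, wild-type, mutant 1 and mutant 2 libraries, miR-192-5p made nearly all of the sum, at 3003 RPM (empty vector) and 1791 RPM (mutant 1). MiR-215-5p was at 34.97 and 24.2 RPM in these, and miR-194-5p at 31.8 and 33.5 RPM. Of 11 markers of other cell types, 8 had more than 3 reads in a library and their sum ranged from 564 RPM with the empty vector to 730 RPM in the mutant 1 library, with no read of miR-124-3p of neurons and miR-1-3p and miR-133a-3p of muscle. Within that sum miR-145-5p, of smooth muscle and fibroblasts, stood at 90.7, 180, 336 and 212 RPM in the empty vector, wild-type, mutant 1 and mutant 2 libraries, the same order of libraries as for miR-29b-3p. MiR-143-3p, of its cluster, went the other way, at 229, 186, 125 and 164 RPM. MiR-126-3p, of endothelium, stood at 238, 286.5, 262 and 259 RPM. Their part in the results below was not tested.

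MiR-29a-3p had most of the reads listed for the family. It had 64471 reads (empty vector), 72107 (wild type), 65681 (mutant 1) and 77502 (mutant 2). These are levels of 4818, 5890, 4682 and 5121 RPM, and the strand ranked between 29th and 33rd among untransfected miRNAs. Its share of listed miR-29 3p reads was 98.1% (empty vector, Wilson interval 98.02 to 98.23), 98.05% (wild type), 97.7% (mutant 1) and, by its interval, 97.9% to 98.1% (mutant 2). These shares take miR-29b-3p as listed, and reads shared by its 2 loci can be missing from that count. On this scale the wild-type library was the highest and mutant 1 the lowest, by more than counting error. That order turned with the scale: the empty vector was the lowest with TMM and DESeq2, mutant 2 was the highest with all miRNA reads, and the empty vector was the highest with miR-16-5p.

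MiR-29c-3p, whose mature sequence differs from miR-29a-3p at position 10 alone, was 50.3 to 56.8 times rarer in reads. It had 1135 reads (empty vector), 1309 (wild type), 1307 (mutant 1) and 1376 (mutant 2), or 84.8, 107, 93.2 and 90.9 RPM. On this scale the wild-type library was the highest, with an interval of 101 to 113 RPM that did not overlap the others. With TMM mutant 1 (1.19 of the empty vector) stood above wild type (1.17), with all miRNA reads mutant 2 was the highest (1.03), and with miR-16-5p the empty vector was.

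MiR-29b-3p was listed with 95, 126, 229 and 202 reads in the empty vector, wild-type, mutant 1 and mutant 2 libraries, or 7.10, 10.3, 16.3 and 13.3 RPM. These counts were fewer than those of its own passenger strands: 2.86 to 4.81 reads of miR-29b-1-5p and miR-29b-2-5p were present for each miR-29b-3p read. MiR-29b-3p is the member with 2 loci, and the authors kept unambiguous reads only. Its listed count is therefore no measure of its level against miR-29a-3p or miR-29c-3p.

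The end isoforms of miR-29b-3p had a form unlike those of the other members. Reads that started at the annotated base and stopped 1 nt short of the annotated end numbered 47, 62, 114 and 100 in the empty vector, wild-type, mutant 1 and mutant 2 libraries. Reads that ran to the annotated end numbered 47, 63, 114 and 101. The counts at both ends were equal in 2 libraries and differed by 1 read in the other 2, and all other ends together held 1 read in each library. To see how common such pairing was, untransfected miRNAs that averaged at least 50 reads were searched for a pair of leading isoforms that share a start, differ by 1 nt at the 3′ end and differ in reads by at most 5% in every library. This held for 6 of 20 miRNAs with 2 or more hairpins in RefSeq, namely miR-29b-3p, let-7f-5p, miR-101-3p, miR-125b-5p, miR-181b-5p and miR-196a-5p. It held for 0 of 406 miRNAs with 1 hairpin. The search was built after the pairing in miR-29b-3p had been seen, and the cause was not tested.

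The 5p strands belong to 1 locus each, so their reads can be assigned to a hairpin. MiR-29a-5p had 446 reads (empty vector), 613 (wild type), 932 (mutant 1) and 976 (mutant 2), or 33.3, 50.1, 66.4 and 64.5 RPM. The empty vector library was the lowest and the mutant libraries were the highest, with overlapping intervals between the latter. MiR-29b-1-5p, from the same chromosome 7 cluster, had 429, 345, 589 and 603 reads, or 32.1, 28.2, 42.0 and 39.8 RPM. Here the wild-type library was the lowest, and its interval overlapped that of the empty vector library. The ratio of miR-29a-5p to miR-29b-1-5p reads was 1.04 with the empty vector (0.911 to 1.19) and 1.58 to 1.78 in the other libraries. Without 3′ ends that stop 3 nt or more short, it was 0.937 with the empty vector and 1.42 to 1.62 in the others.

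On chromosome 1, miR-29c-5p had 142, 186, 278 and 238 reads, or 10.6, 15.2, 19.8 and 15.7 RPM. MiR-29b-2-5p, the rarest member, had 28, 38, 66 and 47 reads, or 2.09, 3.10, 4.71 and 3.11 RPM. The ratio of these strands was 5.07, 4.89, 4.21 and 5.06 in the same order, with intervals that overlapped. It depended on short isoforms of miR-29c-5p: without 3′ ends that stop 3 nt or more short it was 2.96, 3.0, 1.67 and 2.53, again with overlapping intervals. Among miR-29b passenger reads, 93.9% came from MIR29B1 (empty vector, 91.3 to 95.7), 90.1% (wild type), 89.9% (mutant 1) and 92.8% (mutant 2). The chromosome 7 cluster as a whole gave 81.0% to 84.7% of all miR-29 5p reads.

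The order by reads of the 6 members with 1 locus was the same in every library, from miR-29a-3p through miR-29c-3p, miR-29a-5p, miR-29b-1-5p and miR-29c-5p to miR-29b-2-5p. Among these neighbours the intervals overlapped for miR-29a-5p and miR-29b-1-5p with the empty vector.

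Between libraries, the abundant guides moved little, while most of the rarer strands were higher than with the empty vector on the RPM scale. Divided by miR-16-5p reads instead, all 7 members were lower than with the empty vector, apart from miR-29b-3p and miR-29b-2-5p in the mutant 1 library. The summed level of the family relative to the empty vector was 1.22 in the wild-type library (1.21 to 1.24), 0.987 in the mutant 1 library (0.977 to 0.998) and 1.07 in the mutant 2 library (1.06 to 1.08), sums that miR-29a-3p set. For comparison, the median ratio over all untransfected miRNAs that averaged at least 50 reads was 1.06, 0.988 and 1.035. The SD of their log2 ratios was 0.40, 0.49 and 0.37, which is wider than the move of either abundant guide. The SD includes miRNAs with means down to 50 reads, whose counting error adds to it, so it is no yardstick for these guides.

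In the mutant 1 library, 1 of the 6 members with enough reads, miR-29b-3p, was past 2-fold, higher than the empty vector at 2.30-fold (1.81 to 2.92). Past 2-fold in either direction were 3.82% of the 471 untransfected miRNAs. That ratio was 1.77 with all miRNA reads as divisor and 1.11 with miR-16-5p, where the member past 2-fold was instead miR-29a-3p, lower at 0.469-fold, and 56.9% of all miRNAs were past it. With TMM, 3 members were past 2-fold, miR-29b-3p, miR-29a-5p at 2.16-fold and miR-29c-5p at 2.025-fold, where 4.03% of all miRNAs were. With DESeq2 2 members were, where 3.82% of all were. The interval also takes the reads at the paired ends of miR-29b-3p as separate counts, which was not tested. MiR-29a-5p stood at 1.99-fold (1.78 to 2.23), with 9 of the 471 above it, and miR-29c-5p at 1.87-fold (1.53 to 2.29), with 14 above it. MiR-29b-1-5p stood at 1.31-fold and miR-29c-3p at 1.10-fold, while miR-29a-3p stood at 0.972-fold, near the middle of all miRNAs. At a 1.5-fold limit, 3 of 6 members were higher, against 8.92% of the background. The call of miR-29c-5p was lost without isoforms that stop 3 nt or more short, at 1.26-fold (0.951 to 1.68). It was also lost with all miRNA reads as divisor, and each change left 2 members. With all miRNA reads 2.55% of the background was higher by that limit. With miR-16-5p, 0 members were past 1.5-fold higher, where 0.212% of the background was. MiR-29b-2-5p, at 2.25-fold (1.445 to 3.499), had too few reads to enter these counts.

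In the mutant 2 library, 0 of 6 members were past 2-fold, where 1.44% of 486 miRNAs were. With miR-16-5p as divisor 2 were, both lower, miR-29a-3p at 0.433-fold and miR-29c-3p at 0.437-fold, where 78.8% of all untransfected miRNAs were past 2-fold. MiR-29a-5p was 1.93-fold above the empty vector (1.73 to 2.16), with 8 miRNAs above it, and miR-29b-3p was 1.88-fold above it (1.47 to 2.40). These made 2 of 6 members past 1.5-fold, against 7.41% of the background in that direction. MiR-29c-5p stood at 1.48-fold and miR-29b-1-5p at 1.24-fold. The guides miR-29a-3p and miR-29c-3p stood at 1.06-fold and 1.07-fold.

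In the wild-type library, 0 of 6 members were past 2-fold against the empty vector, where 1.91% of 471 miRNAs were. With miR-16-5p as divisor 1 was, miR-29b-1-5p, lower at 0.429-fold, where 43.3% of all were. MiR-29a-5p was the member past 1.5-fold, at 1.502-fold (1.33 to 1.70), against 9.13% of the background. This call was lost under every other scaling tried, at 1.40-fold with TMM, 1.39-fold with DESeq2, 1.151-fold with all miRNA reads and 0.732-fold with miR-16-5p. MiR-29b-3p and miR-29c-5p stood at 1.45-fold and 1.43-fold, and miR-29b-1-5p at 0.879-fold (0.763 to 1.01). MiR-29a-3p and miR-29c-3p stood at 1.22-fold and 1.26-fold, above 73.0% and 76.4% of untransfected miRNAs.

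Between the mutant 1 and wild-type libraries, the median of all 470 untransfected miRNAs was shifted by -0.15 on the log2 scale, a ratio of 0.901. No member was past 2-fold, where 1.49% of the background was. MiR-29a-3p lay below the median, at 0.795-fold (0.787 to 0.803), and miR-29c-3p lay near it at 0.871-fold (0.807 to 0.941). All 4 passenger strands and miR-29b-3p lay above it, from 1.30-fold for miR-29c-5p to 1.59-fold for miR-29b-3p (1.28 to 1.97). Without isoforms that stop 3 nt or more short, miR-29c-5p stood below 1, at 0.941-fold (0.719 to 1.23). At 1.5-fold, 2 of 7 members were higher, miR-29b-3p and miR-29b-2-5p, against 3.4% of the background. The count was 5 with TMM, where 8.94% of the background was higher, 4 with DESeq2, where 8.3% was, and 1 with miR-16-5p, where 2.98% was.

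These level ratios depend on the scale. Division by miR-16-5p, the study's reference, puts the 3 libraries with pri-miRNA plasmids lower, because miR-16-5p itself, whose plasmid was in those mixtures, stood at 16944 RPM with the empty vector and at 34753, 35128 and 41556 RPM in the wild-type, mutant 1 and mutant 2 libraries. On that scale miR-29a-5p read 0.732-fold, 0.962-fold and 0.789-fold of the empty vector in the wild-type, mutant 1 and mutant 2 libraries, where it read above 1 on the scale of untransfected reads. With all miRNA reads as divisor, miR-29a-3p and miR-29c-3p in the wild-type library read 0.937-fold and 0.966-fold of the empty vector. Statements that use a ratio of 2 strands within a library do not depend on the scale.

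The strand balance of a hairpin is such a ratio. Of MIR29A reads, the 5p strand made 0.687% (empty vector, 0.626 to 0.754), 0.843% (wild type, 0.779 to 0.912), 1.40% (mutant 1, 1.31 to 1.49) and 1.24% (mutant 2, 1.17 to 1.32). The mutant libraries lay above the others with intervals that did not overlap. The ratio of miR-29a-5p to miR-29a-3p was thus 2.05 times that with the empty vector in the mutant 1 library (1.83 to 2.30) and 1.82 times in the mutant 2 library (1.63 to 2.04). It was 1.23 times in the wild-type library (1.09 to 1.39).

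For scale, the ratio of the rarer to the more abundant strand was computed for every untransfected hairpin with 1 locus per strand and a mean of at least 50 reads on each. Against the empty vector its median change was 1.08-fold over 104 hairpins in the wild-type library, 1.19-fold over 102 in the mutant 1 library and 1.05-fold over 105 in the mutant 2 library. MIR29A lay above 92.2% of hairpins in the mutant 1 library, with 7 above it, and above 93.3% in the mutant 2 library, with 6 above it. In the wild-type library it lay above 67.3%, with 33 of 104 above it. MIR29C lay above 59.6%, 81.4% and 79.0% of hairpins in the wild-type, mutant 1 and mutant 2 libraries. Shifts of this kind were common in the mutant 1 library, where 28.4% of hairpins were more than 1.5-fold higher, against 11.5% and 12.4% in the wild-type and mutant 2 libraries. The share of reads from plasmid-encoded miRNAs was 29.5% (wild type), 29.3% (mutant 1) and 11.7% (mutant 2), and its part in the strand balance was not tested.

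Of MIR29C reads, the 5p strand made 11.1% (empty vector, 9.51 to 12.96), 12.4% (wild type, 10.9 to 14.2), 17.5% (mutant 1, 15.8 to 19.5) and 14.7% (mutant 2, 13.1 to 16.6). The passenger share of MIR29C was above that of MIR29A in every library, but the gap depended on which isoforms were counted. With the annotated start only, the share was 5.40% to 6.54% for MIR29C and 0.774% to 1.61% for MIR29A. Without 3′ ends that stop 3 nt or more short, it was 6.81% to 7.96% for MIR29C and 0.620% to 1.26% for MIR29A. The higher share of MIR29C in the mutant 1 library was not resolved without the short isoforms described below. Over the whole family, 5p strands made 1.57%, 1.58%, 2.70% and 2.30% of reads in the empty vector, wild-type, mutant 1 and mutant 2 libraries. Without miR-29b, whose 3p count is limited as above, they made 0.888%, 1.08%, 1.77% and 1.52%.

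The guides differed in where they start. MiR-29a-3p began 1 nt upstream of the annotated base, at the side that DICER cuts, in 8362 of 64471 reads with the empty vector, which is 12.97% (12.7 to 13.2). The share was 13.5% in the wild-type library (13.2 to 13.7), 14.7% in the mutant 1 library (14.4 to 14.97) and 13.9% in the mutant 2 library (13.7 to 14.1). The order of these shares was resolved by counting error for the mutant 1 library against each other library, but the whole spread was under 2 percentage points. MiR-29c-3p began there in 8 of 1135, 10 of 1309, 10 of 1307 and 11 of 1376 reads, or 0.705% to 0.799%, with upper limits of at most 1.43%. Among 3p strands of 1 locus with at least 1000 reads, 65 to 73 in each library, the median share of this start was 0.159% to 0.243%, and 4 strands had a larger share than miR-29a-3p in every library.

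The sequences show what the shift does to the seed. The first line is the most frequent shifted isoform, with the annotated end passed by 1 nt, and the second is the annotated isoform with the same end. Both show the genomic bases between the listed ends, not the bases of reads. Capitals again mark bases 2 to 8.
miR-29a-3p starting 1 nt upstream: cUAGCACCaucugaaaucgguuau
miR-29a-3p starting at the annotated base: uAGCACCAucugaaaucgguuau
The shifted seed UAGCACC is that of 1 other miRNA in the RefSeq table, miR-5682, in place of the family seed AGCACCA. The base before the annotated start is c in all 4 hairpins, so a shifted read of any of them would carry the same new seed. The 5 bases before the annotated start are uuuuc in MIR29A, uuguc in both MIR29C and MIR29B1, and guauc in MIR29B2. As listed, miR-29b-3p began at the annotated base in 98.95% to 100% of reads. At 625, 793, 688 and 712 RPM, the shifted reads of miR-29a-3p outnumbered all reads of miR-29c-3p by 7.37 to 7.83 times. Of all listed miR-29 3p reads, 12.7% to 14.4% had the shifted seed.

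Reads of miR-29a-3p with different starts also had different 3′ ends. Among reads with the annotated start, 53.9% stopped at the annotated end with the empty vector and 31.3% passed it by 1 nt. Among reads that began 1 nt upstream, 34.99% stopped at the annotated end (33.98 to 36.02) and 56.1% passed it by 1 nt (55.1 to 57.2). The same exchange was present in all 4 libraries: the end at 1 nt held 53.7% to 56.9% of shifted reads and 30.4% to 32.0% of reads with the annotated start, with no overlap of intervals. By the listed ends, the most frequent shifted isoform was therefore 24 nt long, and the most frequent isoform with the annotated start 22 nt. Whether reads had these lengths was not tested.

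**Figure D1:**
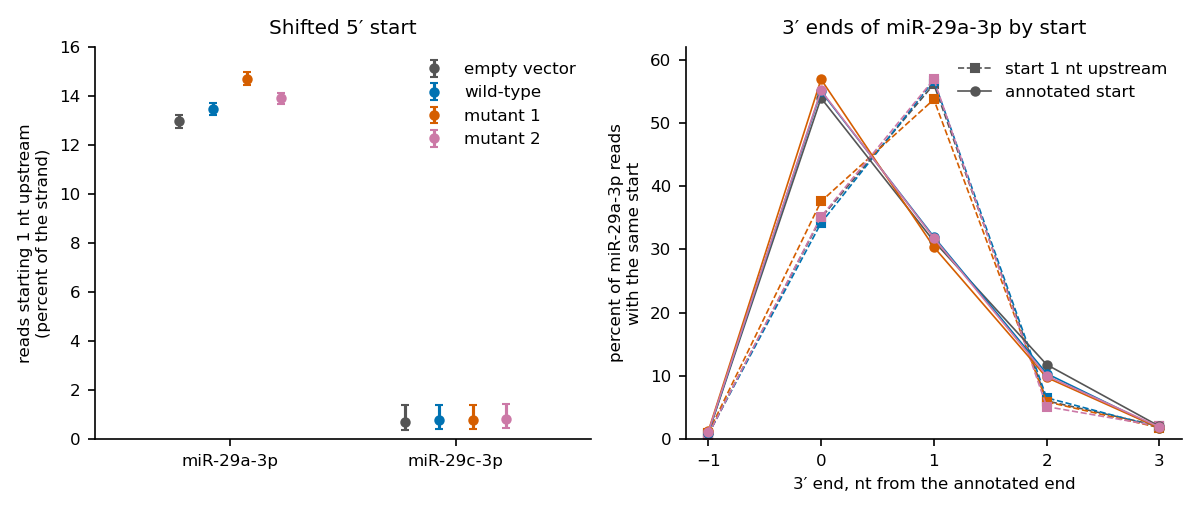
Left: share of miR-29a-3p and miR-29c-3p reads that start 1 nt upstream of the annotated base, in percent, with 95% Wilson intervals, at 12.97% to 14.7% for miR-29a-3p and under 1% for miR-29c-3p. Right: share of miR-29a-3p reads at each 3′ end, in nt from the annotated end, for reads with the shifted start (dashed) and the annotated start (solid) in each library, colored as on the left; the peak is at 1 for the former and at 0 for the latter.

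Over all starts, the 3′ end of miR-29a-3p, on the DROSHA side, was at the annotated base in 51.5% of reads (empty vector, 51.1 to 51.9), 52.2% (wild type), 54.0% (mutant 1) and 52.4% (mutant 2). MiR-29c-3p was more uniform, with 65.8% at the annotated end with the empty vector (63.0 to 68.5), and 64.2%, 69.4% and 66.4% in the wild-type, mutant 1 and mutant 2 libraries. The mutant 1 library had the highest share for both guides. For miR-29a-3p its interval lay above those of all other libraries, and for miR-29c-3p it overlapped those of the empty vector and mutant 2 libraries.

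The starts of the passenger strands, made by DROSHA, were mostly as annotated. MiR-29a-5p began at the annotated base in 96.7% to 98.2% of reads and miR-29b-1-5p in 93.4% to 94.6%, with most other reads of the latter 1 nt downstream. MiR-29b-2-5p did so in 24 of 28, 30 of 38, 48 of 66 and 39 of 47 reads, counts too small to order the libraries. On the DICER side, the leading end of miR-29a-5p was 1 nt short of the annotated end, in 42.3% to 48.0% of reads. The annotated end of miR-29b-1-5p held 55.4% to 64.9%.

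MiR-29c-5p was the exception among passenger strands. Its share of reads at the annotated start was 54.9% (empty vector, 46.7 to 62.9), 39.2% (wild type, 32.5 to 46.4), 28.4% (mutant 1, 23.4 to 34.0) and 37.8% (mutant 2, 31.9 to 44.1). Most of the other reads began 2 nt downstream, in 34.5%, 46.2%, 59.7% and 49.2% of reads. These came mostly from 1 isoform that also stops 3 nt short, shown with bases 2 to 8 in capitals because its seed differs from the annotated one.
miR-29c-5p starting 2 nt downstream and ending 3 nt short: aCCGAUUUcuccuggug
This isoform had 43 of 142 reads with the empty vector, 73 of 186 in the wild-type library, 153 of 278 in the mutant 1 library and 96 of 238 in the mutant 2 library, and was the most frequent isoform of the strand in each. Its 17 nt occur at 1 place in hg38. They are fewer than the 18 nt that the authors required of a read. The listed ends of miR-29b-1-5p imply the opposite case, with 3.57% to 9.28% of its reads longer than the maximum of 26 nt. How listed ends and read lengths relate was not tested. The seed of the 17 nt isoform of miR-29c-5p, CCGAUUU, is found in 0 mature miRNAs of the RefSeq table.

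Without isoforms that stop 3 nt or more short, miR-29c-5p had 83, 102, 110 and 119 reads in the empty vector, wild-type, mutant 1 and mutant 2 libraries. Its ratio to the empty vector in the mutant 1 library was then 1.26 (0.951 to 1.68), against 1.87 with them. The 5p share of MIR29C was then 6.81%, 7.23%, 7.76% and 7.96%, with overlapping intervals in all libraries. The same step left miR-29a-5p at 1.99-fold in the mutant 1 library (1.77 to 2.24), with 838 reads against 402. The higher ratio of miR-29a-5p in the mutant 1 library was thus as large without the shortest isoforms, whereas that of miR-29c-5p was no longer resolved from counting error.

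**Figure D2:**
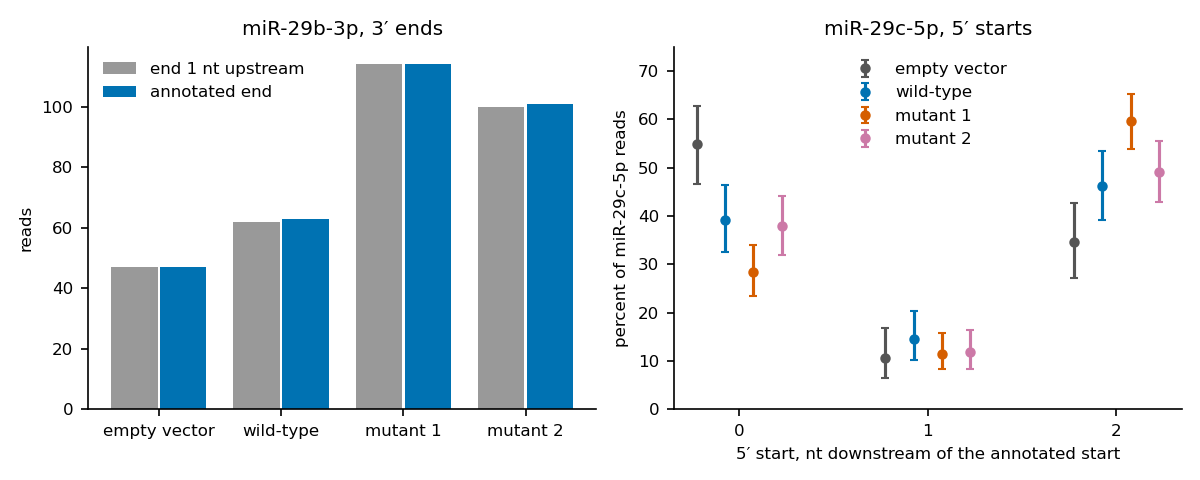
Left: reads of miR-29b-3p that stop 1 nt short of the annotated end (grey) and at it (blue) in each library, 47 and 47 (empty vector) and 114 and 114 (mutant 1). Right: share of miR-29c-5p reads by 5′ start, in nt downstream of the annotated base, in percent with 95% Wilson intervals; the share at 2 nt is lowest with the empty vector (34.5%) and highest in the mutant 1 library (59.7%).

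The miRNAs most like each guide over the libraries were found by the root mean square distance of log2 RPM, each miRNA centred on its own mean over the 4 libraries, among 469 untransfected miRNAs outside the family. MiR-29a-3p was nearest to miR-324-5p (distance 0.029), let-7i-5p and miR-3187-3p, and miR-29c-3p to miR-1293 (0.027), miR-126-3p (the endothelial marker above) and miR-32-5p. These stayed within the same narrow range, with miR-324-5p at 140, 173, 141 and 156 RPM in the empty vector, wild-type, mutant 1 and mutant 2 libraries. MiR-29b-3p was nearest to miR-20a-3p (0.095), miR-424-5p and miR-4521, all highest in the mutant 1 library and lowest with the empty vector. MiR-20a-3p, a passenger strand of the miR-17/92 cluster, stood at 5.75, 9.48, 12.55 and 11.2 RPM.

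Other miRNAs that MYC is known to repress, as it does miR-29, were set beside the family. Of 17 such miRNAs, 16 had enough reads against the empty vector, and 0 of them were past 2-fold in any of the 3 comparisons, where 1.91% (wild type), 3.82% (mutant 1) and 1.44% (mutant 2) of all untransfected miRNAs were. With so low a background, this count does not set the list apart. With miR-16-5p as divisor 8, 5 and 14 of the 16 were past 2-fold lower, against 43.3%, 56.9% and 78.8% of all past 2-fold. With all miRNA reads 1 of the 16 was, in the mutant 1 library, where 9.98% of all were past 2-fold. Their median log2 ratio was 0.03, 0.18 and 0.13 in the wild-type, mutant 1 and mutant 2 libraries, where that of all untransfected miRNAs was 0.09, -0.02 and 0.05. Of 6 miRNAs of the miR-17/92 cluster, which MYC is known to activate, 2 were past 2-fold in the mutant 1 library, where 3.82% of all were. In the wild-type and mutant 2 libraries 0 of 6 were, where 1.91% and 1.44% of all were. Their median log2 ratio was 0.10, 0.62 and 0.23 in the same order of libraries as above. The members past 2-fold were miR-18a-5p, at 465 RPM with the empty vector against 1075 RPM, and miR-19b-3p, which has 2 loci, at 107 reads against 280 reads. Their ratios were 2.31 and 2.50, and both stayed past 2-fold with TMM and DESeq2, where 4.03% and 3.82% of all were. Both fell short of 2-fold with all miRNA reads as divisor, at 1.78 and 1.92, and with miR-16-5p, at 1.12 and 1.204. On the miR-16-5p scale 2, 1 and 3 of the 6 were instead past 2-fold lower in the wild-type, mutant 1 and mutant 2 libraries. There 43.3%, 56.9% and 78.8% of all were past 2-fold.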

How the data were processed

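Small RNA libraries (TruSeq) of transfected HCT116 cells were sequenced, 1 per condition. The authors trimmed adapters with cutadapt, kept reads of 18 to 26 nt, aligned them to hg38 with Bowtie2 and assigned unambiguous reads with mismatches only at the 3′ end to miRBase loci. The deposited values are raw read counts per isoform. A blank was read as 0. Since the authors' filters precede the counts, reads shared by 2 loci can be missing from miR-29b-3p.

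Counts were summed per strand and divided by the reads of miRNAs that no deposited plasmid encodes. Depth sets the precision: Poisson intervals for counts, Wilson intervals for shares and log-normal intervals for ratios. No test was made, since no condition had a replicate; 3 reads are the floor. Alternatives were other scalings (edgeR 4.0.16 TMM, DESeq2 1.42.0 median of ratios, all miRNA reads, miR-16-5p), other isoform sets, a 1.5-fold limit and minimums of 10 and 200 reads. The calculations used Python 3.11.15, pandas 2.3.3, scipy 1.17.1 and R 4.3.3, and were tested on simulated data. Of 1644 names, 1460 matched RefSeq. Positions are from GENCODE 44 and sequences from RefSeq GRCh38.p14.

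The members and lists were chosen with earlier results of these data known. Besides the 7 members, miR-16-5p, marker and MYC lists, the text names the 3 miRNAs nearest to each guide over the 4 libraries. MiRNAs with paired ends were named after their values were seen. The mutant 1 and mutant 2 mixtures were matched to the libraries in the order of the study's plasmid list.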

Additional observations from a re-analysis of the deposited data

How the results depend on the processing

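No paired analysis was possible because each condition had 1 library. For the same reason none could be left out. With 1 library a condition, depth limits only counting error, which is wide for miR-29b-3p, miR-29b-2-5p and miR-29c-5p, and differences between cultures cannot be separated from the mixtures. Of 420 values recomputed under an alternative, 253 moved by less than their interval or by less than 1.5 times for counts and 167 moved further. Of 140 level ratios under another setting, 28 went to the other side of 1: 19 with miR-16-5p, 4 with all miRNA reads, 3 with TMM and 2 with DESeq2. The alternative without miR-29b was added after seeing the data.

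The summed level of the family followed the scale. Against the empty vector it was 0.938, 0.759 and 1.03 in the wild-type, mutant 1 and mutant 2 libraries with all miRNA reads as divisor, 0.597, 0.476 and 0.437 with miR-16-5p, 1.14, 1.07 and 1.05 with TMM and 1.136, 1.05 and 1.04 with DESeq2. Mutant 1 against wild type gave 0.798 with miR-16-5p, 0.939 with TMM, 0.926 with DESeq2 and 0.797 with the annotated start only, which gave 0.970 for mutant 1 against the empty vector.

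With miR-16-5p, members past 2-fold numbered 1 (wild type, miR-29b-1-5p), 1 (mutant 1, miR-29a-3p) and 2 (mutant 2, miR-29a-3p and miR-29c-3p), all lower. On that scale 43.3%, 56.9% and 78.8% of all untransfected miRNAs were past 2-fold. In the mutant 1 library members past 2-fold numbered 0 with all reads, 3 with TMM, 2 with DESeq2 and 0 without miR-29b. The shares of all miRNAs were 9.98% with all reads, 4.03% with TMM and 3.82% with DESeq2. The share was also 3.82% on the scale of untransfected reads, used without miR-29b. At a limit of 1.5-fold members numbered 1, 3 and 2 in the wild-type, mutant 1 and mutant 2 libraries, and 2 for mutant 1 against wild type, all higher. In the same order, 9.13%, 8.92%, 7.41% and 3.4% of the background were higher by that limit. With a minimum mean of 10 reads, 62, 89 and 56 untransfected miRNAs were past 2-fold in these libraries and 72 for mutant 1 against wild type, and with 200 reads 1, 6, 3 and 1 were.

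In the empty vector, wild-type, mutant 1 and mutant 2 libraries, the annotated start only gave miR-29a-3p 97.89%, 97.79%, 97.38% and 97.72% of 3p reads and put 53.9%, 54.98%, 56.9% and 55.1% of them at the annotated 3′ end. The share of 5p strands in the family was 1.41%, 1.39%, 2.33% and 2.06% without the shortest 3′ ends, 1.44%, 1.44%, 2.53% and 2.17% with isoforms of at least 10 reads, and 0.888%, 1.08%, 1.77% and 1.52% without miR-29b. The isoform minimum put MIR29B1 at 93.1% (wild type) and 93.03% (mutant 1) of miR-29b passenger reads. The higher share of 5p strands in both mutant libraries held under each of these.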
